A study of Mus musculus with 6 samples.

Results

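The genes described here encode subunits of the transcription factor AP-1 and their close partners, in B16F10 mouse melanoma cells treated with an EZH2 inhibitor. The 10 members were given by name: Fos, Fosb, Fosl1 and Fosl2 of the Fos family, Jun, Junb and Jund of the Jun family, and the partners Batf3, Atf2 and Maff. They were matched to the symbols in the count files, and all 10 were found among 54838 genes. They were selected on their measured counts in the contrast between treated and control cells, so the members' values and calls below are a description and support no claim about the list. RNA sequencing covered 6 samples of the same established, pigmented line. In 3 of them the cells received GSK126 at 10 µM, an inhibitor of EZH2, the enzyme of Polycomb repressive complex 2 that methylates histone H3 at lysine 27. The other 3 received DMSO, the solvent. All cells grew in medium with fetal bovine serum, the labels do not state how long they were treated, and nothing says whether replicates were separate cultures, so their spread may be technical.

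AP-1 is a dimer of basic leucine zipper (bZIP) proteins. Fos proteins bind DNA only with a partner, usually a Jun protein, whereas Jun proteins also pair with each other or with Atf2. Fos, Fosb, Jun and Junb are immediate early genes, switched on within minutes of a growth factor or stress signal without new protein synthesis, and their transcripts are short-lived. The Fos-related antigens encoded by Fosl1 and Fosl2 lack the strong activation domain of Fos, come later and persist longer. In human melanoma, JUN and FOSL1 are known for their high levels in dedifferentiated, invasive cells.

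The libraries held 14250457 to 14713373 counts with GSK126 and 13594939 to 14072673 with DMSO. Across all genes, 1503 of 13601 tested differed (quasi-likelihood test of edgeR, adjusted p under 0.05 by Benjamini and Hochberg), which is 11.1% of them, with 798 higher and 705 lower. GSK126 replicate 3 stood apart from the other 2 GSK126 libraries on the second principal component, which held 18.9% of the variance, so values without it are given for some genes. All 7 pigment cell markers checked were expressed, with summed levels of 22772 to 23945 CPM (counts scaled to library size, with TMM factors) in GSK126 samples and 21369 to 22574 CPM in DMSO samples. Of these, Mitf (log2 fold change 0.60, SE 0.05), Pmel (0.28, SE 0.03), Sox10 (0.17, SE 0.04) and Dct (0.15, SE 0.04) were called higher and Mlana (-0.28, SE 0.06) lower. Markers of other cell types were low beside the pigment cell markers. Over 6 genes each, macrophage markers summed to 3.26 to 4.46 CPM with GSK126 and 2.15 to 3.41 CPM with DMSO (Adgre1 and Itgam at 0 reads), and T cell markers to 4.55 to 6.28 CPM and 5.05 to 5.81 CPM (Cd3e, Cd3g, Cd4 and Cd8a at 0). Keratinocyte markers did not exceed 0.14 CPM, with 5 of 6 at 0. Endothelial markers summed to 5.72 to 7.40 CPM with GSK126 and 3.23 to 3.49 CPM with DMSO, with Cdh5, Kdr and Emcn at 0 reads in all 6 libraries. Most of that difference was Vwf, called higher at 6.02 ± 0.70 CPM with GSK126 and 2.89 ± 0.07 CPM with DMSO (SD, n = 3 each). Fibroblast markers summed to 34.8 to 39.7 CPM with GSK126 and 37.1 to 40.8 CPM with DMSO. Most of this was Pdgfrb (means of 17.0 and 14.1 CPM) and Col1a2 (17.1 and 21.9 CPM). The fibroblast sums lay above the means of members such as Fosl2 (12.9 and 22.7 CPM). The part of these markers in any result was not tested.

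The sequences just upstream of the members that moved most, and of Jun, are shown because they can be set beside the members' levels and hold letters known from the regulation of these genes. They are the 150 bases before the RefSeq start on GRCm38.p6, read on the strand of the gene. Of the 10 members, 9 matched an entry of the promoter table, with 11 windows in all, since Maff has 3 starts. Windows that overlap annotated exons, that of Fosl2 among them, are not shown. The searched motifs were TGACGT, the core of the cAMP response element, TGACTCA, the AP-1 site, TGACATCA, the variant known from the Jun promoter, CCAAT and the CArG box bound by serum response factor, all on both strands, and TATAAA on the gene's strand. Capitals mark their matches. The windows are chr12:85473740-85473889 on the plus strand for Fos, chr8:84978749-84978898 on the minus strand for Junb and chr4:95052223-95052372 on the minus strand for Jun. For Maff they are chr15:79347370-79347519 (start 2) and chr15:79348252-79348401 (start 3), both on the plus strand.
Fos: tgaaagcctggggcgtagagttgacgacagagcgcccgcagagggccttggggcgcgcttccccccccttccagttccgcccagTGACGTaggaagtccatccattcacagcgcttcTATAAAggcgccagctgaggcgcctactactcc
Junb: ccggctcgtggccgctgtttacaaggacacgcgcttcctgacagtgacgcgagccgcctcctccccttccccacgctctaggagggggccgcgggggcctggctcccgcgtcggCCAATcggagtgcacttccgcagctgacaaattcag
Jun: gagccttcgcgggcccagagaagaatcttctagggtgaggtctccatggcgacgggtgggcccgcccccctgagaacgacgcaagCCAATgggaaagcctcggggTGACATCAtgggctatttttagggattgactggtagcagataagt
Maff start 2: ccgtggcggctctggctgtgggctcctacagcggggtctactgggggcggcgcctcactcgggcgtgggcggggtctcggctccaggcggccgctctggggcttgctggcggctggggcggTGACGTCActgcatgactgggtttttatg
Maff start 3: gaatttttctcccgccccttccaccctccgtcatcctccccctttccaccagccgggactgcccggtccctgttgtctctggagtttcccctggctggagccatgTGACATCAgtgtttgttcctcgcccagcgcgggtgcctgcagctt
The Fos window holds TGACGT at bases -66 to -61 and TATAAA at -33 to -28, counted back from the start. The Jun window holds TGACATCA at -45 to -38 and CCAAT at -65 to -61, and the Junb window holds CCAAT at -36 to -32. Maff start 2 holds TGACGT on each strand in the overlapping letters TGACGTCA, and start 3 holds TGACATCA at -45 to -38. Of 32851 windows of the same length genome-wide, 5.15% hold TGACGT, 2.32% TGACATCA, 2.84% TGACTCA, 24.5% CCAAT, 4.84% TATAAA and 0.916% a CArG box. Neither TGACTCA nor a CArG box was among the letters of the members' windows. Letters further upstream than these 150 bases were not searched, so this does not say that a gene lacks either motif. Fos, which was higher with GSK126, and Maff, which was lower, thus share the TGACGT core. These matches describe letters only, and the files hold no measure of binding.

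Of the 10 members, 8 had enough reads for the test. In the fit across all genes, Fos and Junb were called higher and Fosl2 and Maff lower with GSK126, while Fosb, Jun, Jund and Atf2 were not called. Over all tested genes, 5.87% were called higher and 5.18% lower. The treated and control samples did not overlap in 5 members, against 34.4% of all tested genes. In these bulk samples, fewer cells with a transcript and less RNA per cell cannot be told apart.

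**Figure D1:**
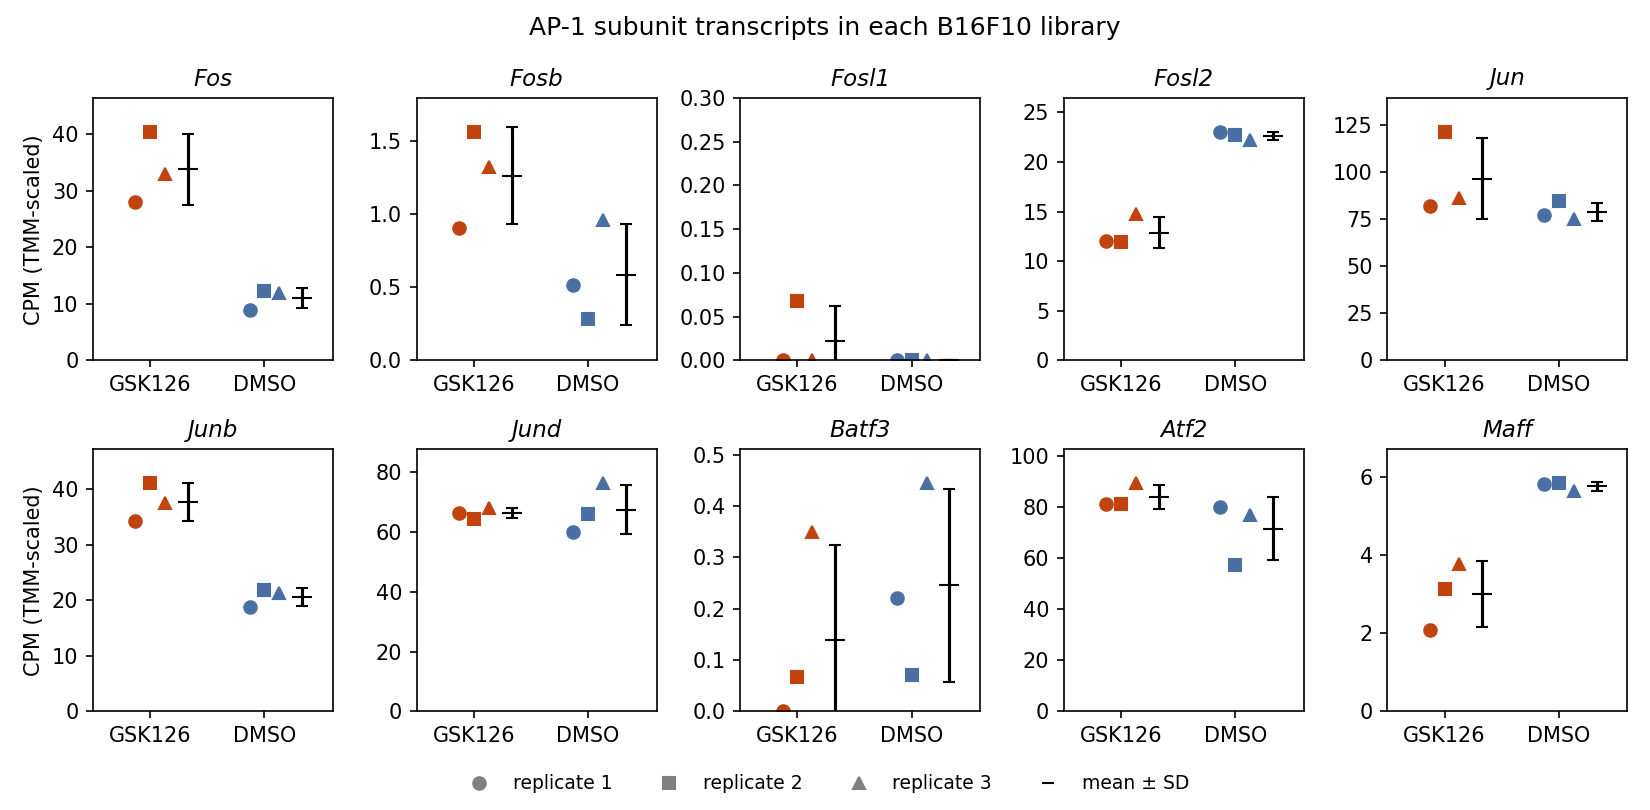
Level of each AP-1 subunit transcript in CPM (linear axis from 0, scaled separately for each gene) in the 3 GSK126 and 3 DMSO libraries, with symbols for the replicates and bars for the mean ± SD. Fos and Junb lie higher in every GSK126 library than in any DMSO library, Fosl2 and Maff lie lower, and Fosl1 and Batf3 are near 0.

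Fos (GRCm38 chromosome 12, 85473890 to 85477273, plus strand), the founding member of its family, showed the widest change. It had 401, 593 and 472 reads in GSK126 replicates 1 to 3, against 122, 173 and 160 in DMSO replicates 1 to 3. All treated libraries exceeded all control libraries, and GSK126 replicate 2 was the highest. The means were 33.7 ± 6.20 CPM with GSK126 and 11.04 ± 1.81 CPM with DMSO (SD, n = 3 each), a 3.05-fold difference with a log2 fold change of 1.61 (SE 0.17). Per length, as the authors' FPKM (counts scaled to gene length and library size), it averaged 8.90 ± 1.62 and 2.90 ± 0.47. That placed Fos above 66.2% of tested genes with GSK126 and above 35.6% with DMSO. The gene length behind these FPKM exceeds the 2352 exon bases annotated for Fos, so its place among genes is approximate. Leaving out each library in turn kept its log2 fold change between 1.46 and 1.73, and its call remained.

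Fosb (chromosome 7, 19302696 to 19310051, minus strand), the closest relative of Fos, was nearly silent. It had 13, 23 and 19 reads in the GSK126 samples and 7, 4 and 13 in the DMSO samples, so the groups met at 13 reads. Its log2 fold change of 1.10 (SE 0.44) was not called. Summed over each group, 55 reads with GSK126 correspond to 1.27 CPM (exact Poisson 95% interval 0.955 to 1.65, for counting error only) and 24 with DMSO to 0.582 CPM (0.373 to 0.865). Without DMSO replicate 3, which held 13 of the control reads, the log2 fold change was 1.65 and still not called.

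Fosl2 (chromosome 5, 32135801 to 32157842, plus strand), which encodes the Fos-related antigen FRA-2, was lower with GSK126, unlike Fos. It had 172, 176 and 211 reads in GSK126 samples and 313, 320 and 300 in DMSO samples. Every treated library was lower than every control library, and GSK126 replicate 3 was the nearest to the controls. The means were 12.9 ± 1.57 CPM with GSK126 and 22.7 ± 0.398 CPM with DMSO (SD, n = 3 each), which is 0.569 of the control level and a log2 fold change of -0.81 (SE 0.10). Without GSK126 replicate 3 the log2 fold change was -0.92, and with any other library left out it lay between -0.83 and -0.76. Its call remained in each case.

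Fosl1 (chromosome 19, 5447703 to 5455945, plus strand), which encodes FRA-1, a factor stabilised by ERK phosphorylation, had 1 read in GSK126 replicate 2 and 0 in the other 5 libraries. The 0 of 41265571 DMSO counts allows a level of up to 0.0727 CPM (3 counts, for counting error only). No fold change can be given at this depth. Of its 2033 exon bases, 1163 are shared with Ccdc85b on the opposite strand, a gene with 57 to 89 reads per library, and how reads on shared bases were counted is unknown. The statement therefore bears on the bases that Fosl1 does not share. Of the Fos-related antigens, only Fosl2 was present at a level that could be compared with the immediate early subunits.

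The make-up of the Fos family pool differed accordingly. Fosl1 and Fosl2 together made up 12.2%, 9.08% and 12.6% of the family's summed FPKM in GSK126 samples, against 45.3%, 37.5% and 37.6% in DMSO samples. The means were 11.3 ± 1.95% with GSK126 and 40.1 ± 4.46% with DMSO (SD, n = 3 each), almost all of it Fosl2. The share of Fos itself was 87.9 ± 1.91% with GSK126 and 59.2 ± 4.46% with DMSO, and that of Fosb 0.75 ± 0.09% and 0.73 ± 0.41%. The ratio of Fos to Fosl2 FPKM was 7.14, 10.3 and 6.85 in treated libraries and 1.19, 1.65 and 1.63 in control libraries. Summed over the family, the level was 10.1 ± 1.64 FPKM with GSK126 and 4.89 ± 0.44 FPKM with DMSO. By raw counts, not scaled for length, the Fos-related share averaged 27.2 ± 4.28% with GSK126 and 66.2 ± 4.02% with DMSO, because Fosl2 has the longer transcript. The lengths behind the FPKM exceed the annotated exon bases of Fos (2352), Fosb (6243) and Fosl2 (9680), by a larger factor for Fos than for Fosl2. The FPKM shares and ratios are therefore approximate in size, and the direction of the difference was the same by raw counts.

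**Figure D2:**
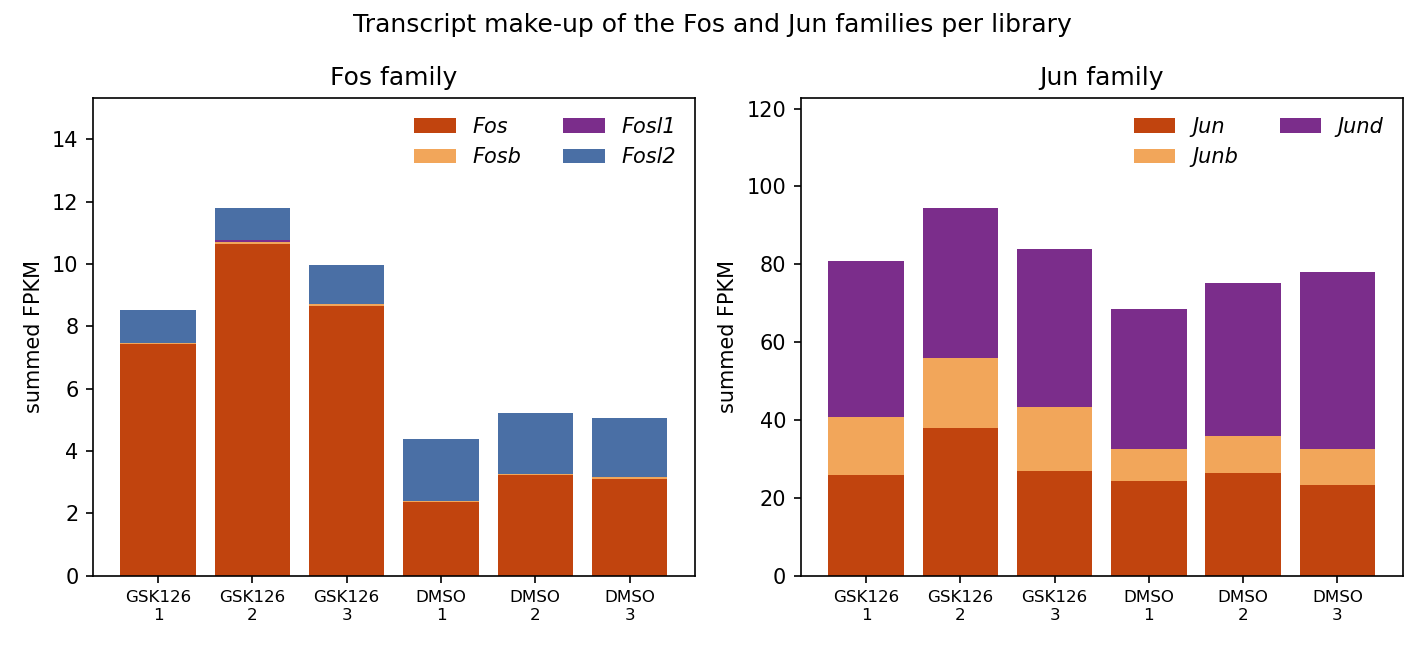
Summed FPKM of the Fos family (left) and the Jun family (right) in each library, with 1 stacked bar per library and 1 colour per gene. The Fos segment is taller and the Fosl2 segment shorter in all 3 GSK126 libraries, while Jund and Jun make up most of the Jun family in all 6.

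Among the Jun genes, Junb (chromosome 8, 84974484 to 84978718, minus strand), an immediate early subunit with weaker activation capacity than Jun, was the only member called. It had 490, 604 and 539 reads in GSK126 samples and 256, 306 and 288 in DMSO samples. The groups did not overlap, and replicate 2 was again the highest treated library. The means were 37.6 ± 3.43 CPM with GSK126 and 20.6 ± 1.595 CPM with DMSO (SD, n = 3 each), a 1.82-fold difference with a log2 fold change of 0.87 (SE 0.10). Its log2 fold change lay between 0.80 and 0.93 with each library left out, and its call remained. Junb shares 173 of its 2301 exon bases with Prdx2 on the opposite strand. Prdx2, an abundant peroxiredoxin gene, had 12043 reads against 2483 of Junb, and its log2 fold change of -0.12 (SE 0.05) was not called. Part of the Junb reads is therefore uncertain.

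Jun (chromosome 4, 95049034 to 95052222, minus strand), the prototype of the family and the main substrate of the JNK kinases, had 1174, 1781 and 1239 reads in GSK126 samples. The DMSO samples had 1051, 1186 and 1014. The groups overlapped, since DMSO replicate 2 exceeded GSK126 replicate 1, and the difference rested on GSK126 replicate 2. The means were 96.5 ± 21.4 CPM and 78.9 ± 4.84 CPM (SD, n = 3 each), with a log2 fold change of 0.29 (SE 0.15) that was not called. Without GSK126 replicate 2 it was 0.09. The antisense gene Junos shares 232 exon bases with Jun but had only 2 to 13 reads per library.

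Jund (chromosome 8, 70698949 to 70700616, plus strand), the constitutively expressed Jun gene, had 66.4, 64.4 and 68.0 CPM in GSK126 samples and 60.0, 65.8 and 76.2 CPM in DMSO samples. The treated libraries lay inside the range of the controls. The means of 66.2 ± 1.81 CPM with GSK126 and 67.3 ± 8.20 CPM with DMSO gave a log2 fold change of -0.02 (SE 0.09), not called, which was 0.07 without DMSO replicate 3. Within the Jun family, Junb made up 18.9 ± 0.45% of summed FPKM with GSK126 and 12.1 ± 0.39% with DMSO, and Jund 46.3 ± 4.70% and 54.4 ± 3.29%. The summed Jun family exceeded the summed Fos family 8.63 ± 0.77-fold with GSK126 and 15.1 ± 0.63-fold with DMSO (FPKM; SD, n = 3 each). The lengths behind these FPKM equal the annotated exon bases of the 3 Jun genes but exceed those of Fos, Fosb and Fosl2. Both ratios are therefore larger than they would be by exon bases.

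Of the partners, Maff (chromosome 15, 79346621 to 79359076, plus strand) was the member with the lowest fold change. It encodes a small Maf protein that has no activation domain and pairs with NRF2, Bach and Fos proteins. It had 30, 46 and 54 reads in GSK126 samples and 79, 82 and 76 in DMSO samples, with no overlap between groups. The means were 2.995 ± 0.843 CPM with GSK126 and 5.76 ± 0.11 CPM with DMSO (SD, n = 3 each), which is 0.521 of the control level and a log2 fold change of -0.94 (SE 0.21). The call ended when any of the 3 DMSO libraries, GSK126 replicate 1 or GSK126 replicate 2 was left out, at log2 fold changes of -0.97 to -0.74, and held without GSK126 replicate 3 (-1.14). It also ended without a filter on low counts.

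Atf2 (chromosome 2, 73816509 to 73892639, minus strand), which pairs with Jun at cAMP response elements and is activated by p38 and JNK, had 1163, 1195 and 1281 reads in GSK126 samples and 1089, 805 and 1040 in DMSO samples. The groups did not overlap in CPM, but GSK126 replicate 1 at 81.2 CPM and DMSO replicate 1 at 80.0 CPM nearly met, and DMSO replicate 2 was low. The log2 fold change of 0.23 (SE 0.12) was not called, and without DMSO replicate 2 it was 0.09. Batf3 (chromosome 1, 191097847 to 191108945, plus strand), a partner of Jun known from dendritic cells, had 0, 1 and 5 reads in GSK126 samples and 3, 1 and 6 in DMSO samples. Its summed level was 0.138 CPM (exact Poisson 95% interval 0.0508 to 0.301) with GSK126 and 0.242 CPM (0.116 to 0.446) with DMSO, so no difference was detectable at this depth.

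By the deposited FPKM, the order of the members with GSK126 was Jund (39.7 ± 1.02 FPKM), Jun (30.3 ± 6.70), Junb (16.3 ± 1.45), Fos (8.90 ± 1.62), Atf2 (4.805 ± 0.247), Fosl2 (1.11 ± 0.13), Maff (0.663 ± 0.184), Fosb, Batf3 and Fosl1. With DMSO the same order held for Jund (40.2 ± 4.72 FPKM), Jun (24.7 ± 1.57) and Junb (8.95 ± 0.67), but Atf2 (4.08 ± 0.70) stood above Fos (2.90 ± 0.47), and Fosl2 (1.95 ± 0.04) and Maff (1.27 ± 0.03) followed. The FPKM ranges of neighbours in that order did not overlap, except between Fosb and Batf3 in both groups and between Batf3 and Fosl1 with GSK126. The lengths behind these FPKM exceed the annotated exon bases of Fos, Atf2, Fosl2 and Maff but equal those of the Jun genes. The order and the gaps between genes therefore hold for the deposited values only. Fos and Atf2 thus exchanged places between the groups by this measure.

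The treated replicates fell in a like order for the immediate early members. Fos, Fosb, Jun and Junb all had their highest GSK126 level in replicate 2, as did 8 of 16 other tested immediate early genes and 31.0% of all tested genes. The other 8 of the 16 were highest in GSK126 replicate 1. Among DMSO libraries, 3 of these 4 members were also highest in replicate 2, as were 7 of the 16 other genes and 32.6% of all tested genes. These counts were made after the values were seen. The lowest GSK126 level of all these 4 members was in replicate 1.

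**Figure D3:**
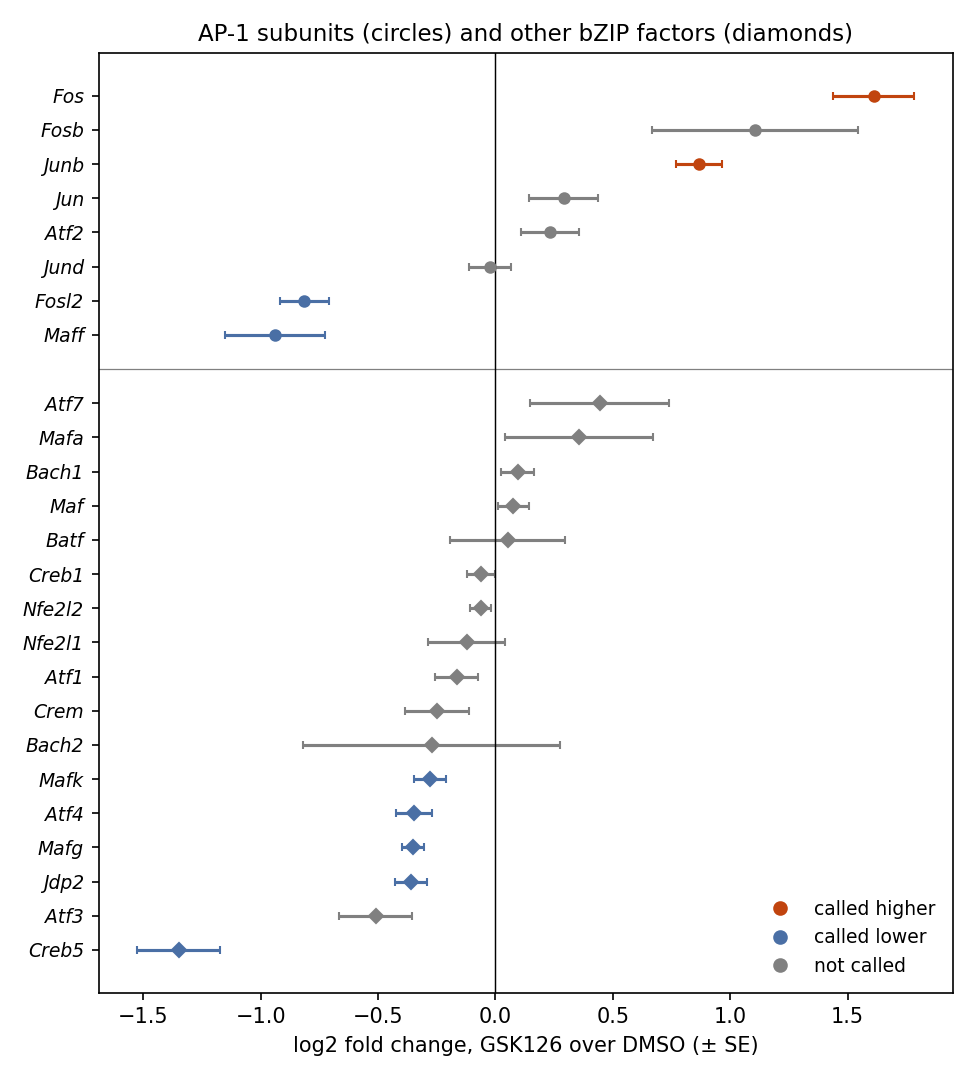
Log2 fold change of GSK126 over DMSO with its standard error for the 8 tested AP-1 subunits (circles, above the line) and 17 tested other bZIP factors (diamonds, below it), coloured by the call across all genes. Values range from 1.61 for Fos to -0.94 for Maff among the subunits, and Creb5 at -1.35 is the lowest of the others.

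Other bZIP factors, partners or relatives of AP-1 proteins, were lower or did not pass the test. Of 22 such genes, 17 were tested, of which 0 rose and 5 fell (edgeR), with a median log2 fold change of -0.17 against 0.00 over all tested genes. Over all tested genes, 5.87% were called higher and 5.18% lower, and the counts of this and the later lists can be set beside these shares. Creb5, a relative of Atf2, fell to 2.23 ± 0.37 CPM with GSK126, against 5.71 ± 0.42 CPM with DMSO (SD, n = 3 each; log2 fold change -1.35, SE 0.18, edgeR adjusted p = 0.00541). Jdp2, a Jun dimerisation partner that represses AP-1 targets, stood at 49.1 ± 3.58 and 63.0 ± 0.46 CPM (log2 fold change -0.36, SE 0.07, edgeR adjusted p = 0.0195). The small Maf gene Mafg fell by 0.35 (SE 0.05) and Mafk, named after its value was seen, by 0.28 (SE 0.07) on the log2 scale. Atf4, the effector of the integrated stress response, averaged 251 ± 16.1 CPM and 320 ± 28.1 CPM (log2 fold change -0.35, SE 0.08). All 3 small Maf genes, Maff, Mafg and Mafk, were therefore called lower. The calls of Jdp2, Atf4 and Mafk were unstable: that of Jdp2 ended without any DMSO library or GSK126 replicate 1 (adjusted p up to 0.0763), that of Atf4 without any library but DMSO replicate 3 (up to 0.108) and that of Mafk without any of the 6 (up to 0.127). The stress-inducible Atf3 did not pass (log2 fold change -0.51, SE 0.16, edgeR adjusted p = 0.0814).

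Other immediate early genes were higher in part. Of 18 in the list, 16 were tested, of which 4 rose and 2 fell, with a median log2 fold change of 0.21. Egr1, a zinc finger factor induced through the same serum response elements as Fos, had 85.8, 147 and 93.7 CPM in GSK126 samples and 21.2, 27.5 and 18.9 CPM in DMSO samples (log2 fold change 2.27, SE 0.23, edgeR adjusted p = 0.00214). Like Fos, it was highest in GSK126 replicate 2, and its groups did not overlap. Ier2 (log2 fold change 0.76, SE 0.12), the nuclear receptor gene Nr4a3 (1.58, SE 0.38) and Ier3 (0.44, SE 0.09) also rose, whereas Ctgf (-1.14, SE 0.20), a target of YAP and SRF, and Myc (-0.67, SE 0.10) fell. Ier3 and Myc were named after their values were seen. Nr4a3 had 111, 34.6 and 108 CPM in DMSO replicates 1 to 3. Without DMSO replicate 2 its log2 fold change was smaller, at 1.21 (SE 0.06). The call of Ier2 ended without DMSO replicate 1 (adjusted p = 0.0512), that of Ctgf without GSK126 replicate 1 (0.0513), that of Nr4a3 without any library but DMSO replicate 2 (up to 0.102) and that of Ier3 without any library but GSK126 replicate 2 (up to 0.102). Nr4a1 (0.18, SE 0.09), Dusp1 (0.12, SE 0.15) and Btg2 (-0.05, SE 0.15), other classical members of that class, did not pass.

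Genes known as transcriptional output of ERK, the kinase that drives Fos and Fosl1 transcription, fell in part. Of 12 tested, 0 rose and 8 fell, with a median log2 fold change of -0.54. The 4 that did not pass were Dusp5 (0.32, SE 0.37), Phlda1 (0.16, SE 0.06), Spry1 (-0.18, SE 0.10) and Spred1 (-0.15, SE 0.05), the first pair of them above 0. Etv5, an ETS factor gene, averaged 3.50 ± 0.11 CPM with GSK126 and 11.8 ± 1.296 CPM with DMSO (SD, n = 3 each; edgeR adjusted p = 0.000713). The feedback inhibitor gene Spry4 fell by 1.11 (SE 0.15) and Etv1 by 0.98 (SE 0.13) on the log2 scale, and the phosphatase genes Dusp6 and Dusp4, named after their values were seen, by 0.62 (SE 0.08) and 0.55 (SE 0.06). Etv4 had 0 to 2 reads in GSK126 libraries and 16 to 24 in DMSO libraries. Fos and Junb were thus higher in the same libraries in which these 8 genes were lower.

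Transcripts of kinases that act on AP-1 mostly did not pass the test, as was so over all tested genes (5.87% called higher and 5.18% lower). Of 20 genes, namely Gsk3b and those of the ERK, JNK, p38 and ERK5 routes, all tested, 0 rose and 1 fell, with a median log2 fold change of 0.04. Map2k3, an activator of p38, fell by 0.30 (SE 0.07), a call that held only with all libraries or without GSK126 replicate 3 (adjusted p up to 0.118 without another). The JNK genes Mapk8 and Mapk9 had log2 fold changes of 0.20 (SE 0.12) and 0.06 (SE 0.10) that did not pass. Some of the 20 were too variable between replicates to say how far they differed, such as Gsk3b (0.25, SE 0.50), Map2k7 (-0.08, SE 0.50) and Rps6ka3 (-0.20, SE 0.39). The largest value that did not pass was that of Rps6ka2 (0.43, SE 0.13, edgeR adjusted p = 0.0807), whose groups did not overlap. RNA levels do not measure kinase activity.

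Among 9 activators of the Fos and Jun promoters, all tested, 0 rose and 1 fell, with a median log2 fold change of 0.15. Srf, the serum response factor gene, had 32.5, 34.3 and 33.9 CPM in GSK126 samples and 51.5, 51.6 and 51.5 CPM in DMSO samples. The replicates were tight in each group and the groups far apart (log2 fold change -0.62, SE 0.06, edgeR adjusted p = 0.00156). Its cofactor gene Elk1 had a log2 fold change of 0.08 (SE 0.06) that did not pass. In a list of 11 genes of AP-1 transcript decay and protein turnover, all tested, 1 rose and 1 fell, with a median of 0.00. Zfp36, which encodes tristetraprolin, a protein that destabilises Fos and other short-lived messages and is itself an immediate early product, averaged 23.1 ± 3.60 CPM with GSK126 and 12.8 ± 0.66 CPM with DMSO (log2 fold change 0.85, SE 0.13, edgeR adjusted p = 0.00863). Its relative Zfp36l2 fell by 0.43 (SE 0.06) on the log2 scale. The ubiquitin ligase genes Fbxw7 (-0.26, SE 0.25), Itch (0.06, SE 0.09) and Cop1 (-0.01, SE 0.07), whose products degrade Jun, did not pass.

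**Figure D4:**
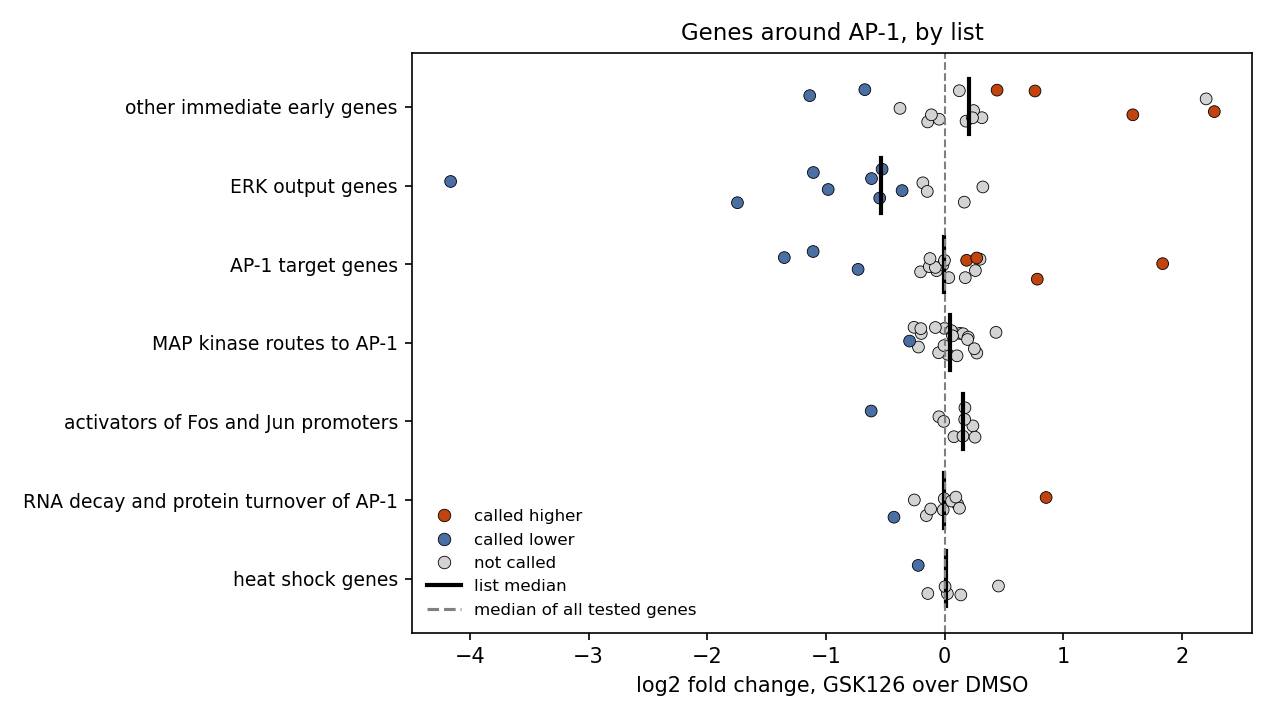
Log2 fold change of GSK126 over DMSO for each tested gene of 7 lists around AP-1 (points, coloured by the call across all genes), with the median of each list (black bar) and of all tested genes (dashed line). Of the 12 ERK output genes, 8 were called lower (median of all 12 -0.54) and Dusp5 and Phlda1 lie above 0, and the AP-1 targets lie on both sides of 0.

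Textbook target genes of AP-1 did not move in a single direction. Of 32 targets, 18 were tested, of which 4 rose and 3 fell, with a median log2 fold change of -0.01. Spp1, which encodes osteopontin, had 23.9, 26.2 and 23.9 CPM in GSK126 samples and 7.13, 5.90 and 7.71 CPM in DMSO samples (log2 fold change 1.84, SE 0.12, edgeR adjusted p = 0.000377). Ccnd1, the cyclin D1 gene, averaged 98.8 ± 6.36 CPM with GSK126 and 213 ± 1.38 CPM with DMSO (SD, n = 3 each; edgeR adjusted p = 0.000178). The groups of each were far apart, in opposite directions. Ccnd1 shares 1100 exon bases with LTO1 on the opposite strand, which had 910 reads against 13059.

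The metallothionein gene Mt2 (0.78, SE 0.19), Ezr (0.27, SE 0.05) and the hyaluronan receptor gene Cd44 (0.18, SE 0.04) rose, and the cytokine gene Lif (-1.35, SE 0.27) and the urokinase receptor gene Plaur (-0.73, SE 0.14) fell (log2 fold changes, edgeR). Ezr, Cd44 and Plaur were named after their values were seen. Each of these 5 calls ended when any of several libraries was left out, with the log2 fold change still on its side of 0. Over all genes, the count of calls was 529 to 1243 with a library left out, against 1503 with all libraries. The call of Mt2 ended without any library but GSK126 replicate 3 (adjusted p up to 0.132), which was low at 191 CPM, and that of Lif without any but DMSO replicate 2 (up to 0.0715). That of Ezr ended without any DMSO library (up to 0.0585), that of Cd44 without any DMSO library or GSK126 replicate 2 (up to 0.0857) and that of Plaur without DMSO replicate 2 or 3 or GSK126 replicate 2 (up to 0.0756). The matrix metalloproteinase genes Mmp3, Mmp10, Mmp12 and Mmp13, classical targets in fibroblasts, had 0 reads in every library. Hmox1 (0.03, SE 0.08), Vim (-0.13, SE 0.09), Vegfa (-0.08, SE 0.09) and Hmga1 (0.00, SE 0.06) did not pass the test.

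Heat shock genes, which respond to cell stress, are given beside the immediate early genes, and their part in those results was not tested. Of 7, 6 were tested, of which 0 rose and 1 fell, with a median log2 fold change of 0.01. Hsph1 fell by 0.22 (SE 0.05), a call that ended without DMSO replicate 1, DMSO replicate 2 or GSK126 replicate 1 (edgeR adjusted p up to 0.0986). Dnajb1 averaged 41.2 ± 4.11 CPM with GSK126 and 41.1 ± 1.91 CPM with DMSO. The inducible Hspa1b averaged 2.53 ± 0.63 CPM and 1.85 ± 0.40 CPM without passing, and Hspa1a had at most 1 read in a library. The list's summed level was 4854 to 5246 CPM with GSK126 and 5299 to 5721 CPM with DMSO.

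The genes closest to Fos in their pattern were sought by the root mean square difference of log2 CPM, centred on each gene's mean, over the 6 samples and among 9941 genes. They were Ano3, an anoctamin gene (0.23), Map1a, a microtubule-associated protein gene (0.24), and Kbtbd11, a kelch-domain gene (0.26). Their log2 fold changes were 1.54 (SE 0.12), 1.48 (SE 0.09) and 1.41 (SE 0.13). Map1a shares 272 exon bases with Ppip5k1, which had more reads, so part of its reads is uncertain. The same search for Fosl1 gave no answer because of its lack of reads. For Fosl2, added after the values were seen, the nearest were Tbkbp1, an adaptor of the kinase TBK1 (0.07), Cth, the cystathionine gamma-lyase gene (0.09), and the kinesin heavy chain gene Kif5b (0.10).

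**Figure D5:**
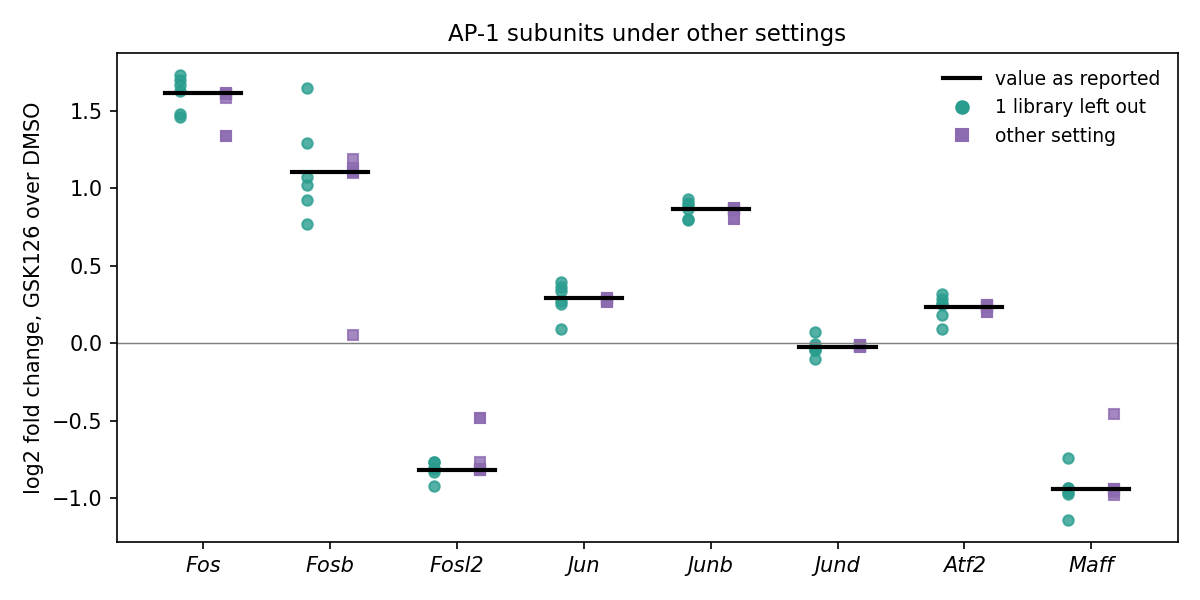
Log2 fold change of GSK126 over DMSO of the 8 tested AP-1 subunits as reported (black bars), with each of the 6 libraries left out in turn (circles) and under other tests, filters and scalings (squares). Fos, Junb, Fosl2 and Maff stay on their side of 0 under every setting shown, and the square of Fosb near 0 comes from log2(FPKM + 1), which compresses low values.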

How the data were processed

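RNA was sequenced from 3 GSK126 and 3 DMSO samples of B16F10 cells. Per the submitters' processing notes, CASAVA 1.8 called the bases and HISAT2 aligned the reads, with GRCm38.p4/mm10 as the build. The counter, its strand setting and the annotation were not given in the sources used here, so reads of overlapping genes cannot be told apart. The authors deposited whole-number counts by gene, and FPKM in a table of their own. The deposited FPKM followed each gene's share of library counts between libraries (largest ratio 1.00059, across 12550 genes), which does not check the gene lengths behind them. The length that counts and FPKM imply for Fos exceeds its 2352 exon bases and its span of 3384 bp. The implied lengths of Fosb, Fosl2, Atf2, Maff and Batf3 also exceed their exon bases, whereas those of Jun, Junb and Jund equal theirs. FPKM served to compare genes, but levels of different genes are therefore approximate.

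The counts went into edgeR 4.0.16 under R 4.3.3 (filterByExpr, TMM, quasi-likelihood F test, group as the only term). This kept 13601 genes and at least 99.87% of each library's counts, and Benjamini-Hochberg adjustment covered all of them. The test was checked on simulated data. Standard errors were derived from the F statistic, and the biological coefficient of variation was 0.119. Alternatives used DESeq2 1.42.0, limma 3.58.1, other scalings, no filter and fewer libraries.

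The members and gene lists were chosen with earlier results of these data known. Named genes were all members, up to 4 called genes with the largest change from each list other than the cell type markers, and the 3 genes nearest to Fos among those with a mean of at least 5 CPM. This rule gave 34 genes, and 11 more were named after their values were seen, besides uncalled genes given as examples. Where identifiers shared a symbol, the one with most reads was used. Exon sharing came from GENCODE M21, in which 54037 of 54723 matched identifiers have the files' start and end. Promoters are from RefSeq (GRCm38.p6). Replicates differed by more than counting noise, with a chi-square over its degrees of freedom of 7.12 to 13.3 per pair.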

Additional observations from a re-analysis of the deposited data

How the results depend on the processing

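The calls of Fos, Junb and Fosl2 remained under every alternative run that tested them, and that of Maff ended under 8 of them. Over all genes, the count of 1503 became 899 without a filter on low counts, 867 with log2(FPKM + 1) unfiltered, and 529 to 1243 with a library left out. The count of AP-1 targets, 7, was 2 to 6 with a library left out: 2 without DMSO replicate 3, and 3 without DMSO replicate 1, DMSO replicate 2 or GSK126 replicate 2. With log2(FPKM + 1), the fall of Fosl2 was -0.48 and that of Maff -0.46, since the pseudocount compresses low values. The difference in the Fos-related share of the Fos family, -28.8 percentage points, was -39.0 points by raw counts, and 0.124 points for Fosl1 as a share of Fosl1 plus Fos, which rests on 1 read. The FPKM difference lay between -30.1 and -26.2 points with a library left out. Its size also depends on the gene lengths behind the FPKM, and lengths by exon bases were not tried. The log2 fold change of Jund lay between -0.10 and 0.07 with a library left out, and was 0.0737 without DMSO replicate 3. The cause was not tested. The labels number the replicates of both groups but state no pairing. Across all genes, samples of the same number did not deviate together (correlations of -0.0611 to 0.0149), which does not settle pairing for single genes. With replicate number as a block in the fit, the SE of Fos was 0.096 against 0.171 without it. It was also smaller for Jun, Junb, Jund and Atf2, but larger for Fosl2 (0.113 against 0.103), Maff and Fosb. With the replicate block, 408 genes, 3 members (Maff lost) and 2 targets were called. Depth limits what can be said of Fosl1, Batf3 and Fosb.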
